A study of Mus musculus with 4 samples.

Results

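The regions described here are 1048 ATAC-Seq peaks that lay close to the start of a gene and carried a modestly higher signal in Sin3B-/- than in Sin3B+/+ long-term haematopoietic stem cells (LT-HSCs). They were found among the 5332 peaks of a deposited table of differentially accessible regions, of which they made up 19.7%. A peak was taken when its centre lay at -1000 to 100 bp from the gene start given in the table, with negative values upstream, and when the log2 ratio of its summed Sin3B-/- to its summed Sin3B+/+ values was above 0 and below 1. The members were therefore chosen by the measured values of all 4 libraries, and every genotype difference given for them is a description with no test. The table itself holds only peaks that the authors had already called different between the genotypes at a false discovery rate under 0.05, so peaks without a difference were not analysed here.

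ATAC-Seq measures open chromatin with the Tn5 transposase, which inserts adapters into DNA that is not packed into nucleosomes. There were 2 libraries of Sin3B+/+ and 2 of Sin3B-/- cells from adult C57BL/6 mice without treatment. A library held the pooled LT-HSCs of 2 mice, so that 8 mice were used. The sort took lineage-negative, Sca-1+, cKit+, Flk2-, CD48-, CD150+ bone marrow cells after magnetic enrichment for cKit. In Sin3B-/- mice a floxed Sin3B allele was deleted by Vav1-iCre, which acts throughout the blood system from embryonic life, so these cells had developed without Sin3B. The study names the controls Sin3B+/+ and in places Sin3B F/F, and whether they carried a floxed allele or Cre is not given in the sources used here. The amount of transposase was scaled to the number of cells obtained, and whether cell number differed between the genotypes was not tested.

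Sin3B is a scaffold without DNA-binding activity of its own that brings histone deacetylases to promoters. It is known as a partner of the DREAM complex, which holds cell cycle genes silent in resting cells. Promoters of many widely expressed genes are open in most cell types, are rich in CpG dinucleotides and hold sites for factors such as NFY, SP/KLF, ETS family members, NRF1 and YY1. LT-HSCs are mostly quiescent, and cell cycle exit and entry are the processes for which Sin3B is best known in them.

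The gene starts carried the letters of these promoter factors, and 8 matches are shown because each is the member peak with the highest mean signal among those that held the motif within 300 bp around the peak centre. All are read on the plus strand of GRCm38, and capitals mark the matches, of which those in Gm43935 and Spag7 are the reverse complement of the letters searched. The Sp1 stretch holds the NFY letters on both strands. The stretches for Gm43935, Spag7 and Lyl1 lie in exons and were kept to 30 bases. The others lie outside annotated exons.

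Sp1, NFY, chr15:102405783-102405869: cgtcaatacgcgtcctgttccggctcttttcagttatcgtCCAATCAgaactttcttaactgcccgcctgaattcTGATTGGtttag
Evi5l, SP/KLF, chr8:4166211-4166298: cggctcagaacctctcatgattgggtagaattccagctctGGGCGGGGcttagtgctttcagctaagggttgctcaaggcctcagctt
Gm43935, ETS, chr6:113306606-113306635: tcgggcccactCTTCCGGctgcggtcgtcg
Cdca3, NRF1, chr6:124829485-124829538: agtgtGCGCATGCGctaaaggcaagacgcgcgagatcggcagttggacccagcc
Rap2a, CRE, chr14:120477847-120477934: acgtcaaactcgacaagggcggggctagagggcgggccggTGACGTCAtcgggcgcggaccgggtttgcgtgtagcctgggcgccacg
Atf7, BANP, chr15:102625465-102625531: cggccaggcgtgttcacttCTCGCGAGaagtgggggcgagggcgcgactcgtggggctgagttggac
Spag7, YY1, chr11:70669266-70669295: ccagtaggtccGCCATCTTgggaatgagtg
Lyl1, E2F, chr8:84701488-84701517: ctttgcacacgTTTGGCGCtgggctcctga

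Motifs were searched as exact letters on both strands, and none of the motifs contains another in full. CCAATCA or CCAATGA (NFY) was found in 28.1% of the 1048 member windows, with a 95% Wilson interval of 25.5 to 30.9%. The same letters were in 11.0% of the other modest gains overlapping genes and in 9.33% of those outside genes. They were in 11.6% of 32817 promoter windows of the same length from RefSeq annotation of GRCm38. These windows were placed by gene starts and not by peaks, and they were taken whether or not the promoter was open. Open promoters without a difference were not compared. The other modest gains were set apart by the gene start given in the table. By GENCODE, 586 of these 2838 peaks (20.6%) had a transcript start in the distance window of the rule, so they include promoters. GGGCGGGG (SP/KLF) was found in 29.3% of members, against 9.34%, 6.45% and 17.6% in the same 3 sets. CCGGAAG (ETS) was in 19.0% of members, against 8.63%, 5.08% and 8.86%. These 3 motifs were the most frequent ones, and 75.3% of members held at least 1 of the 13 motifs searched.

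Rarer promoter motifs were also more frequent in the members, with CHR and TATA as exceptions. TTTCCCGC or TTTGGCGC (E2F) was in 32 members (3.05%, Wilson interval 2.17 to 4.28%), against 0.853% and 0.823% of the other modest gains and 1.56% of all promoter windows. The other motif linked to the DREAM complex, TTTGAA (CHR), stood the other way, in 11.1% of members against 13.2%, 15.4% and 17.9%. AAGATGGC (YY1) was in 5.34% of members and 2.74% of all promoter windows. TGACGTCA (CRE) was in 3.63% and 1.79%, GCGCATGCG (NRF1) in 2.48% (interval 1.70 to 3.61%, which includes the share of all promoter windows) and 1.75%, and CTCGCGAG (BANP) in 2.10% and 0.920%. The TATA box (searched as TATAAAA), the core promoter element of many strongly regulated genes, was in 1.81% of members and 5.48% of all promoter windows.

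Letters of factors that define blood cell enhancers were less frequent in the members than in the other modest gains, at shares like those of promoters in general. TGTGGTT (RUNX) was in 4.39% of members, 10.7% of the modest gains overlapping genes and 16.9% of those outside genes. The GATA motif, searched as AGATAAG, was in 2.58%, 9.29% and 11.9%, and TGACTCA (AP-1) in 4.39%, 8.25% and 10.3%. In all promoter windows these letters were in 5.27%, 3.05% and 5.20%, each within the Wilson interval of the members. For these 3 motifs the Wilson intervals of the members reached at most 5.81%, which is below the shares in both other sets. A match describes the letters in a window and is no evidence that a factor was bound there.

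**Figure D1:**
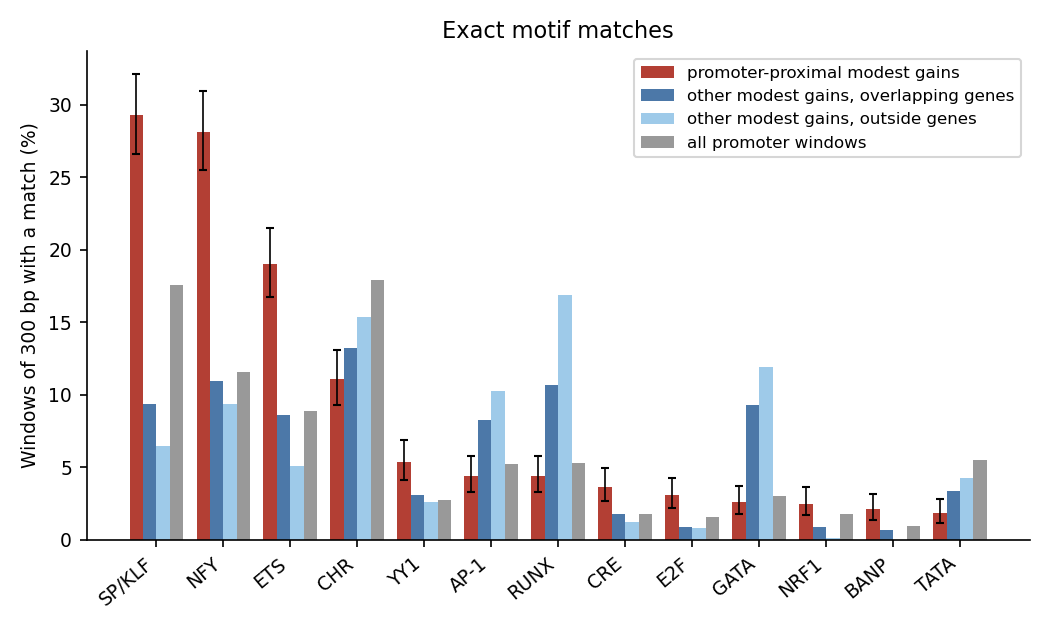
Share of 300 bp windows, in percent, that held an exact match of each motif on either strand, for the promoter-proximal modest gains, the other modest gains overlapping or outside genes, and all promoter windows. Error bars are 95% Wilson intervals for the members; SP/KLF, NFY and ETS stand highest in the members (29.3%, 28.1% and 19.0%), and RUNX and GATA (4.39% and 2.58%) stand below both other sets of modest gains.

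The members were rich in G and C. Their median GC content over the 300 bp around the centre was 60.3% (quartiles 55.0 and 64.7%), against 55.0% for other modest gains overlapping genes, 51.3% for those outside genes and 52.7% for all promoter windows. The median ratio of observed to expected CpG was 0.74, against 0.38, 0.26 and 0.38. The other modest gains included peaks near transcript starts, as given above. With a GC content over 50% and a CpG ratio of at least 0.6 taken as a CpG island-like window, 71.0% of members qualified, against 29.9% of the other modest gains overlapping genes and 33.3% of all promoter windows. The promoter windows were taken whether open or not, so the part of openness in this difference was not tested. The 57 promoter-proximal peaks with a log2 ratio of 1 or more had a median CpG ratio of 0.42, and 28.1% of them qualified. The difference between members and these 57 peaks lies along the ratio on which both were chosen. Some of the motif letters above, such as GGGCGGGG and CCGGAAG, hold mostly G and C bases, and others, such as TTTGAA and TATAAAA, mostly A and T. The part of base composition in the motif shares was not tested.

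Most members sat directly on the gene start, within a window that the rule cuts at 100 bp inside the gene. With limits of -1000 to 1000 bp the rule held for 1714 peaks in place of 1048. The centres of 530 (50.6%) lay from 200 bp upstream to the start itself, 293 (28.0%) lay 1 to 100 bp inside the gene, 170 (16.2%) lay more than 200 and at most 500 bp upstream and 55 (5.25%) lay farther upstream. In 974 members the peak overlapped the start itself, in 59 it lay wholly upstream and in 15 it enclosed the whole gene. By the GENCODE M21 annotation of GRCm38, 650 centres (62.0%) lay outside genes, 245 (23.4%) in a UTR, 70 (6.68%) in an intron, 61 (5.82%) in an exon of a non-coding transcript and 22 (2.10%) in a coding exon. A transcript start of the gene named in the table was found in the same distance window for 1017 members (97.0%), and for 238 (22.7%) the window held starts on both strands. Peaks with starts on both strands had a median signal of 816 against 652 for the rest, and a median log2 ratio of 0.65 in both.

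**Figure D2:**
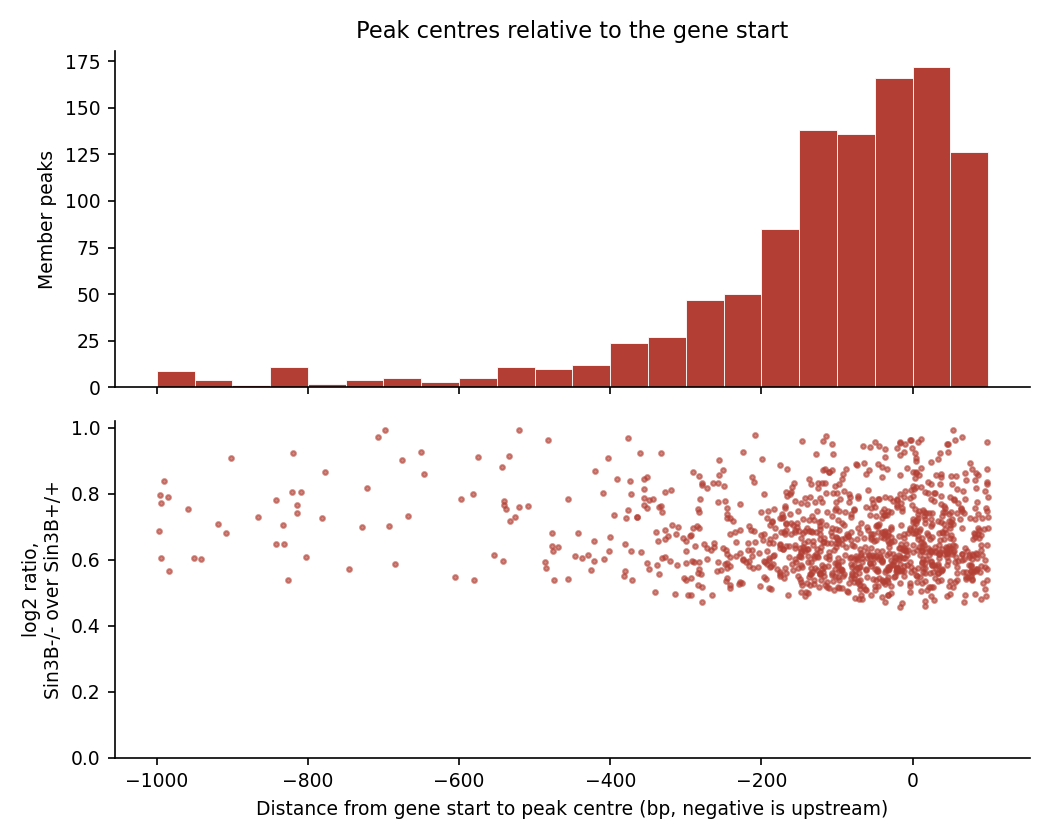
Upper panel, number of member peaks in 50 bp steps of distance from the gene start to the peak centre, in bp, with negative values upstream. Lower panel, log2 ratio of Sin3B-/- over Sin3B+/+ of each member against the same distance. Most centres lie within 200 bp upstream of the start or up to 100 bp inside the gene, where the rule cuts the window. The ratio stays between 0.46 and 0.99 at every distance.

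Starts on both strands included genes of cell division, and the examples named next were chosen after the values were seen. The Cdca3 peak is shared with Usp5, which encodes a deubiquitinase, and its sequence is shown above with the NRF1 letters. Cdca3, which is needed for entry into mitosis, had 3080 and 2793 in the Sin3B+/+ libraries (replicates 1 and 2, here and below) and 4835 and 5156 in the Sin3B-/- libraries, a log2 ratio of 0.77. The Cdca2 peak, shared with Kctd9, had 2120 and 2088 against 3661 and 4518, a log2 ratio of 0.96. Reads at such a peak cannot be given to either gene.

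The rule admits only log2 ratios above 0 and below 1, so that a small difference in a narrow range was fixed by the choice of members. Within it the log2 ratio ran from 0.46 to 0.99 with a median of 0.65 (quartiles 0.58 and 0.75, SD 0.12 over peaks), and 936 members (89.3%) lay between 1.4-fold and 1.8-fold. No member had a ratio between 0 and 0.46, where the table holds no promoter-proximal peak. The median of the whole table, which includes the peaks at 1 or more, was 0.76. The other modest gains had medians of 0.71 over genes and 0.76 outside genes. Median signal over the 4 libraries was 672 in members, 341 in modest gains overlapping genes and 250 in those outside genes, in the deposited units, which are reads in the peak multiplied by 1 factor per library. Median width was 831 bp against 753 and 674 bp.

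**Figure D3:**
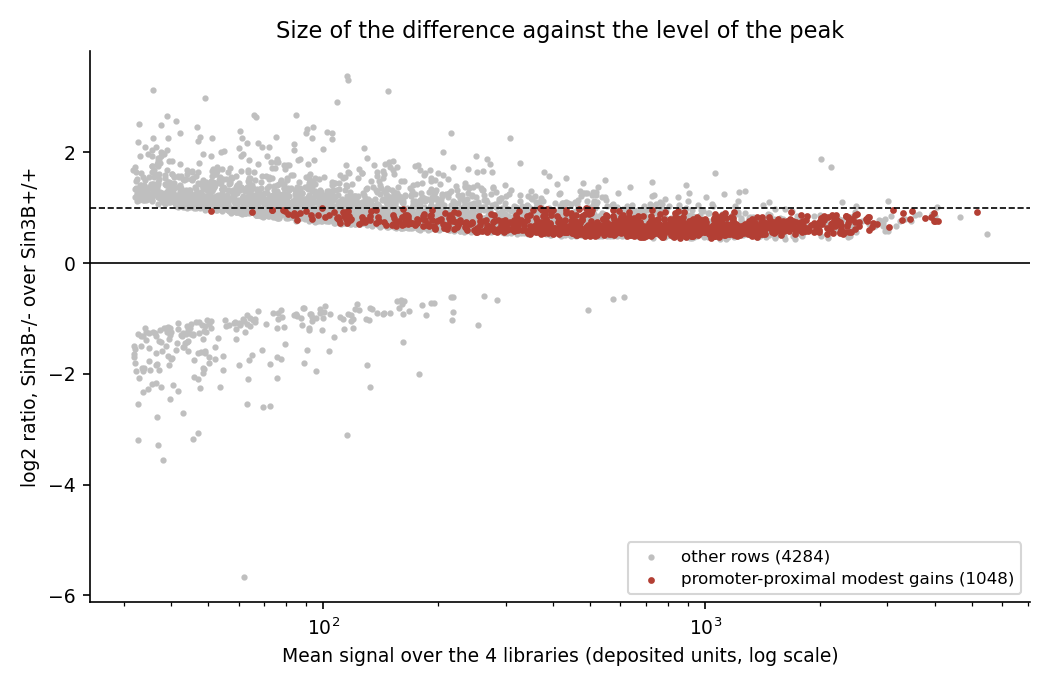
Log2 ratio of Sin3B-/- over Sin3B+/+ against the mean signal of the 4 libraries on a log scale, for the 1048 members and the 4284 other peaks of the table; the dashed line marks the upper limit of 1. The members form a band from 0.46 to 0.99 at higher signal than most other peaks.

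Within the band, the group of weakest peaks had the largest median ratio, but ratios did not fall steadily with signal. Split by signal into 4 groups of 262, the members of lowest signal had a median ratio of 0.72, against 0.62, 0.61 and 0.67 in the groups of rising signal. The smallest ratio in these groups was 0.52, 0.49, 0.46 and 0.47. The table had been filtered on false discovery rate, and the part of that filter in this relation was not tested. Across the 1048 members, Pearson's r between ratio and log2 signal was -0.22, between ratio and GC content -0.23 and between ratio and width -0.17. Peaks share the same 4 libraries and are not independent replicates, so these values are descriptions. Members with a CpG ratio under 0.6, 273 in number, had a median log2 ratio of 0.71 and a median signal of 498, against 0.63 and 728 in the other 775.

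All 1048 members had both Sin3B-/- values above both Sin3B+/+ values, and so did 95.7% of the whole table. By limma on log2(signal + 1), with Benjamini-Hochberg adjustment over the table, all 1048 were higher in Sin3B-/- at an adjusted p of at most 0.05, as were 95.7% of all peaks. These counts repeat the contrast that chose the members, and nothing is read from them. The standard error of the difference was 0.215 on the log2 scale for every peak, because limma pooled the spread over the table in full. Without Sin3B-/- replicate 2 the count fell to 373 (35.6% of members, beside 58.5% of all peaks), without Sin3B+/+ replicate 2 to 756 (72.1%, beside 82.2%) and without Sin3B-/- replicate 1 to 876 (83.6%, beside 86.6%), with the lone library assumed to vary like the other genotype. Without Sin3B+/+ replicate 1 it was again 1048, beside 95.6% of all peaks, and adding the replicate block gave 1037, beside 95% of all peaks.

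The 4 libraries stood in 1 order over the members, with median signals of 568 and 476 in Sin3B+/+ and 787 and 844 in Sin3B-/-. The median log2 ratio of a Sin3B-/- over a Sin3B+/+ library was 0.46 and 0.73 for Sin3B-/- replicate 1 over the 2 controls, and 0.58 and 0.86 for Sin3B-/- replicate 2. Over the whole table the same medians were 0.57 and 0.83, and 0.69 and 0.96. Libraries of the same genotype also differed in 1 direction. Sin3B+/+ replicate 1 was above replicate 2 in 991 of 1048 members (median 0.26), and Sin3B-/- replicate 2 was above replicate 1 in 851 (median 0.14). The whole table had nearly the same medians, of 0.26 and 0.12. The gap between the lower Sin3B-/- and the higher Sin3B+/+ value was at least 0.15 on the log2 scale, and it exceeded the larger of the 2 differences within a genotype in 793 members (75.7%), beside 77.1% of the whole table.

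The ratio of single members had little correlation between pairs of libraries. Over the 1048 members, the log2 ratio of the replicates numbered 1 and that of the replicates numbered 2 had a Pearson's r of 0.01, and the crossed pairs had 0.11. The rule bounds the ratio of the summed values, which by itself lowers such a correlation. These values therefore cannot tell whether the pairs share a ratio.

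**Figure D4:**
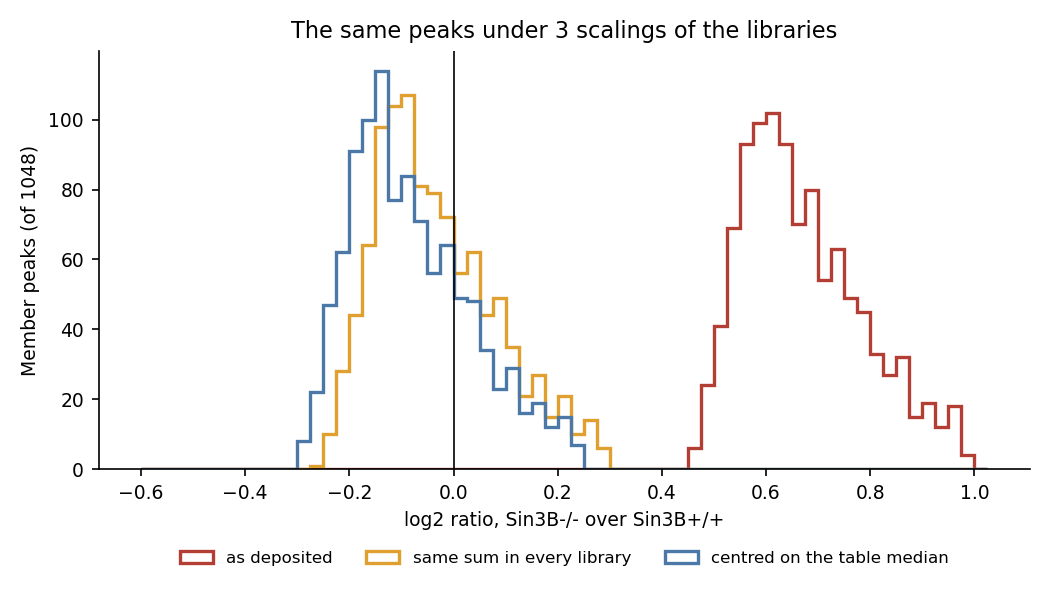
Number of member peaks by log2 ratio of Sin3B-/- over Sin3B+/+, with the signal as deposited, with every library scaled to the same sum over the table, and with every library centred on its median over the table. As deposited all 1048 members lie above 0, with equal sums 360 and with centred medians 252.

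The position of the members relative to 0 rested on the scaling of the libraries. The deposited values of each library are whole multiples of 1 step, of 0.228 and 0.343 in Sin3B+/+ and of 0.625 and 1 in Sin3B-/-, and a step is taken here as the weight of 1 read. Divided by these steps, the summed value was lower in Sin3B-/- than in Sin3B+/+ in every member, with a median log2 ratio of -0.88. With every library scaled to the same sum over the table, 360 members stayed above 0 and the median was -0.05. With libraries centred on their table median, 252 stayed above 0 and the median was -0.10, and limma called 0 of the members at an adjusted p of at most 0.05 (at an unadjusted p of at most 0.05, 0 higher and 4 lower), with 374 peaks of the table (7.01%) called higher and 229 lower. Both scalings remove any difference that the whole table shares, and 95.7% of its peaks had been deposited as higher in Sin3B-/-, so neither stands for an unchanged background. The upper limit of 1 keeps the members below the larger gains. The other modest gains, under the same limit, had medians of 0.71 and 0.76 as deposited, against 0.65 in the members. The cause of this difference was not tested. The median of the table was 0.76 as deposited, 0.05 with equal sums and 0.01 with centred medians. The members held 37.6% of the summed signal of the table in each Sin3B+/+ library and 36.6 and 36.8% in the Sin3B-/- libraries.

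The 3 members with the highest mean signal were at Sp1, Gsk3b and Fbrs. The peak at Sp1 (chr15:102405199-102406422, centre 333 bp upstream), which encodes the zinc finger factor that binds GC boxes, had 3844 and 3261 in Sin3B+/+ and 6201 and 7266 in Sin3B-/-, a log2 ratio of 0.92. The peak at Gsk3b, which encodes a kinase of Wnt and insulin signalling, had 3269 and 2777 against 5017 and 5211, a ratio of 0.76. The peak at Fbrs had 3227 and 2676 against 4775 and 5271, a ratio of 0.77. In each of the 3 the genotypes did not overlap, as in all 1048 members and 95.7% of the whole table. All 3 stayed above 0 with equal sums and with centred medians.

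**Figure D5:**
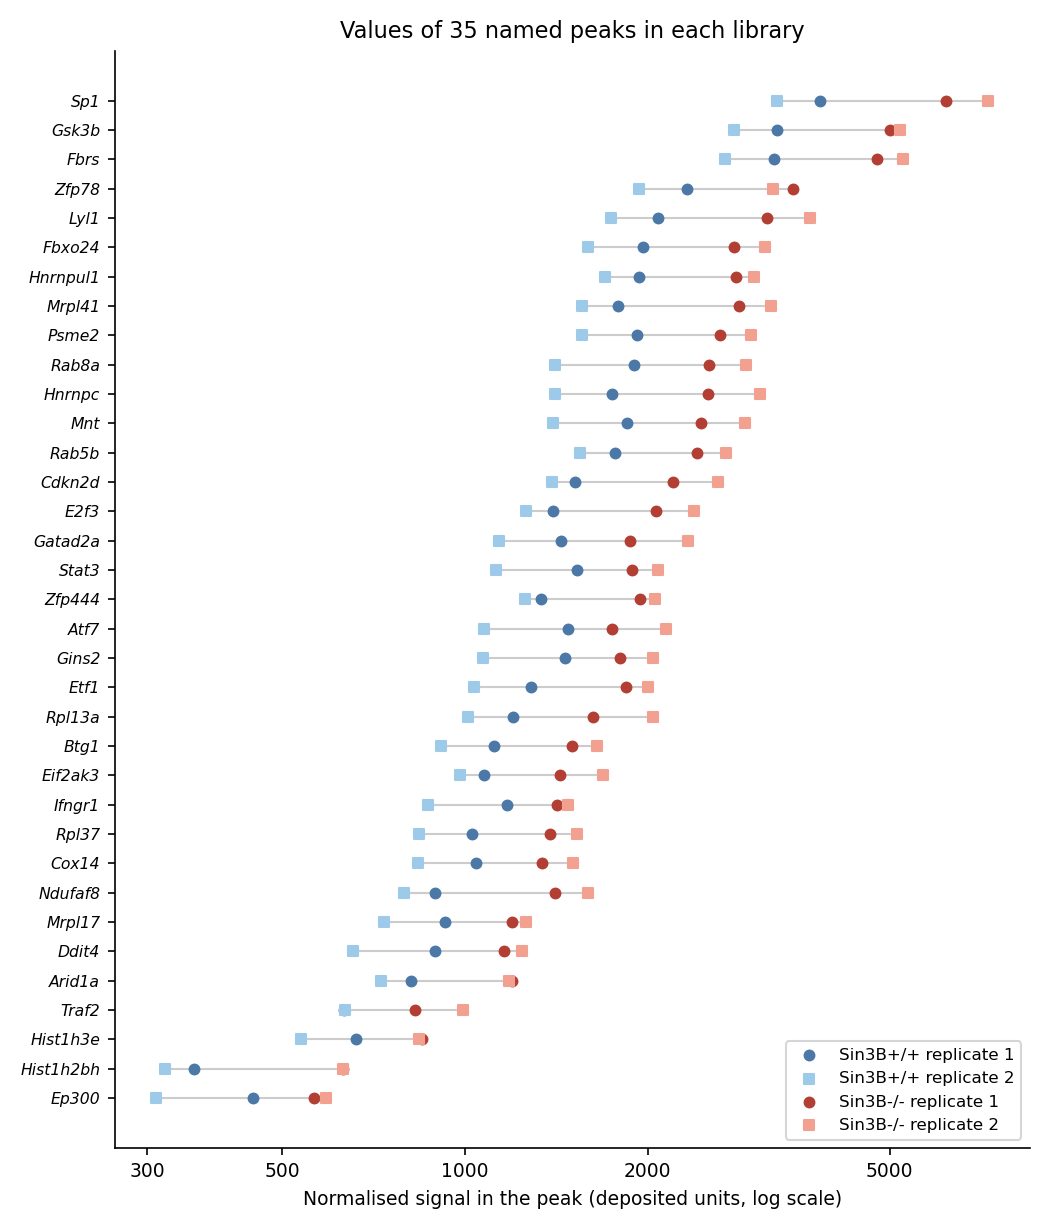
Signal in each of the 4 libraries, on a log scale, at 35 member peaks named by the highest signal overall or within a gene list, ordered by mean signal. Each row is 1 peak named by its gene, and circles are replicate 1 and squares replicate 2. In every row both Sin3B-/- values lie to the right of both Sin3B+/+ values, as in all members and 95.7% of the whole table.

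Genes of the cell cycle were among the members. Of 69 protein-coding genes on a list of cell cycle and DREAM genes, 10 (14.5%) had a member peak, against 904 of 21924 (4.12%) protein-coding genes of the annotation. The median log2 ratio of their 11 peaks was 0.70, beside 0.65 for all members, and 5 of the 11 stayed above 0 with equal sums and 3 with centred medians. With any peak of the table counted, the share was 27.5% of the list and 15.7% of all protein-coding genes. The peak at Cdkn2d (chr9:21290958-21291805, centre 25 bp inside the gene, in a UTR), which encodes the CDK4/6 inhibitor p19, had 1520 and 1392 in Sin3B+/+ and 2204 and 2608 in Sin3B-/-, a ratio of 0.73. The peak at E2f3, which encodes an E2F factor that drives entry into S phase, had 1395 and 1263 against 2066 and 2386, a ratio of 0.74. Both have higher values in each Sin3B-/- library than in either control, as all members and 95.7% of the whole table do. The list thus held an inhibitor and an activator with like values, within the band that the rule allows. The other genes of the list with a member peak were Ccnd2, Mad2l1, Ccna2, Ccnf, Ccng2, Cenpa, Ccnc and Cdc25c, with ratios from 0.50 to 0.91. A gene without a member peak may have a peak that was not in the table, so the share says nothing about unlisted promoters.

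Phase signatures that the study used to sort single cells gave a similar spread. Of their protein-coding genes, 3 of 45 (6.67%) had a member peak for G0, 9 of 150 (6.00%) for G0.1, 8 of 89 (8.99%) for G1.S, 13 of 100 (13.0%) for S, 21 of 123 (17.1%) for G2.M, 19 of 138 (13.8%) for M and 14 of 97 (14.4%) for M.G1. The share with a member peak was highest for G2.M and lowest for the signatures of G0 and G0.1. Of all protein-coding genes 4.12% had a member peak. With any peak of the table counted, the share ran from 14.6% for G1.S to 35.6% for G0. It was 33.3% for G2.M and 15.7% for all protein-coding genes. Median log2 ratios of the signatures' member peaks ran from 0.60 to 0.69, a range smaller than the difference between the 2 Sin3B+/+ libraries.

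Genes of DNA replication and repair were next. Of 71 listed genes 7 (9.86%) had a member peak, with a median ratio of 0.60, and 2 of the 7 stayed above 0 with equal sums and 0 with centred medians. The peak at Gins2, which encodes a subunit of the replicative helicase complex, had 1462 and 1070 in Sin3B+/+ and 1802 and 2043 in Sin3B-/-, a ratio of 0.60. At Gins2 the 2 control libraries lay farther apart than the nearest libraries of the 2 genotypes, and without Sin3B+/+ replicate 2 the ratio was 0.40.

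The Sin3 and histone deacetylase machinery itself appeared in the list. Of 38 genes of Sin3, HDAC and corepressor complexes, 5 (13.2%) had a member peak, at Mnt, Gatad2a, Phf12, Mxd1 and Rcor1. Any peak of the table was found for 26.3% of the list, beside 15.7% of all protein-coding genes. Mnt and Mxd1 encode MAX partners that recruit Sin3 proteins, Gatad2a a NuRD subunit and Rcor1 the CoREST scaffold. Phf12 encodes a partner of Sin3B in a shared complex. The Mnt peak had 1849 and 1394 in Sin3B+/+ and 2446 and 2887 in Sin3B-/-, a ratio of 0.72, and the Gatad2a peak 1439 and 1139 against 1873 and 2326, a ratio of 0.70. The others lay between 0.54 and 0.68, and of the 5 peaks 1 stayed above 0 with equal sums and 0 with centred medians. Sin3b and Sin3a had 0 peaks in the table, so the deletion could not be checked from it.

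Factors of haematopoietic stem cells were represented by 7 of 51 genes (13.7%), among them Lyl1, Stat3, Txnip, Myc, Junb and Socs1. With any peak of the table counted, the share was 47.1%, beside 15.7% of all protein-coding genes. Of the 7 peaks 1, at Lyl1, stayed above 0 under both other scalings. The peak at Lyl1 (chr8:84701159-84701922, centre 83 bp inside the gene, in a UTR), which encodes a bHLH factor of stem cell maintenance, had 2076 and 1741 in Sin3B+/+ and 3137 and 3702 in Sin3B-/-, a ratio of 0.84. It is the member whose E2F letters are shown above. The peak at Stat3, which encodes a cytokine-activated factor, had 1531 and 1126 against 1884 and 2076, a ratio of 0.58. The peak at Myc, which was chosen after its values were seen, had 540 and 404 against 689 and 679, a ratio of 0.53. The genotypes did not overlap at these genes, as at all members and 95.7% of the whole table. At Stat3 and Myc the 2 control libraries differed by more than the gap between the genotypes. Without Sin3B+/+ replicate 2 the Stat3 ratio was 0.37.

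Sorted cells were checked against markers of LT-HSCs and of mature blood lineages, as far as a table of differences allows. Of 13 LT-HSC markers, 6 had a peak in the table (Fgd5, Gata2, Hoxb5, Meis1, Procr and Slamf1) and 0 were members. Of 21 markers of mature lineages, 6 had a peak (Cd3d, Csf1r, Gp1ba, Itga2b, Klf1 and Pf4) and 3 were members, the megakaryocyte genes Gp1ba, Itga2b and Pf4, at log2 ratios of 0.82, 0.65 and 0.66. Mean signals of the marker peaks ran from 65.7 to 809 for LT-HSC markers and from 36.9 to 663 for mature markers. All marker peaks were higher in Sin3B-/-, at log2 ratios of 0.52 to 1.07 and 0.59 to 1.07. The part of other cell types in the member values was not tested, and a marker without a row may be open without differing.

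Genes of protein synthesis made up a further group. Of 86 ribosomal protein genes 9 (10.5%), of 70 translation factors 7 (10.0%) and of 160 splicing factors and RNA helicases 13 (8.13%) had a member peak, with median ratios of 0.63, 0.65 and 0.60. The Rpl13a peak had 1201 and 1011 in Sin3B+/+ and 1624 and 2037 in Sin3B-/-, a ratio of 0.73, and the Rpl37 peak 1029 and 841 against 1383 and 1529, a ratio of 0.64. Etf1, which encodes the factor that ends translation at stop codons, had 1284 and 1037 against 1841 and 2001, a ratio of 0.73. Eif2ak3, which encodes the stress kinase PERK, had 1076 and 981 against 1436 and 1687, a ratio of 0.60. Hnrnpul1 and Hnrnpc, both RNA-binding proteins of the nucleus, had ratios of 0.67 and 0.82. The ratios of these groups and of the cell cycle genes share a band because the rule fixed it for all members.

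Mitochondrial genes had shares nearer to the 4.12% of all protein-coding genes. Of 103 genes of the respiratory chain and ATP synthase 6 (5.83%) and of 78 mitochondrial ribosomal proteins 6 (7.69%) had a member peak. Ndufaf8, an assembly factor of complex I, had 893 and 793 in Sin3B+/+ and 1406 and 1593 in Sin3B-/-, a ratio of 0.83, and Cox14, an assembly factor of complex IV, had 1042 and 836 against 1339 and 1509, a ratio of 0.60. Mrpl41 and Mrpl17 had ratios of 0.85 and 0.56. In each of these genes the genotypes did not overlap, as in all members and 95.7% of the whole table.

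Ubiquitin and proteasome genes had 17 of 240 (7.08%), vesicle traffic genes 15 of 219 (6.85%) and Zfp zinc fingers 25 of 394 (6.35%) with a member peak. Fbxo24, an F-box gene, had a ratio of 0.73 and Psme2, a subunit of the proteasome activator PA28, 0.68. Rab8a and Rab5b, small GTPases of secretion and endocytosis, had 0.71 and 0.62. Zfp78 had 2322 and 1936 in Sin3B+/+ and 3462 and 3214 in Sin3B-/-, a ratio of 0.65, and was a peak where Sin3B-/- replicate 1 was the higher of its pair. For these 3 lists the median ratios were 0.61, 0.66 and 0.63.

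Chromatin genes and histones were mostly weaker peaks. Of 66 chromatin regulators 3 (4.55%) had a member peak and 20 more had only other peaks in the table. Arid1a, a subunit of the BAF remodeller, had 814 and 728 in Sin3B+/+ and 1198 and 1184 in Sin3B-/-, a ratio of 0.63, and Ep300, which encodes the acetyltransferase p300, had 449 and 311 against 565 and 590, a ratio of 0.61 (0.37 without Sin3B+/+ replicate 2). Of 80 core histone genes 10 (12.5%) had a member peak, and all 10 peaks are on chromosome 13. Hist1h2bh had 359 and 322 against 631 and 631, a ratio of 0.89, and Hist1h3e had 662 and 537 against 850 and 842, a ratio of 0.50.

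Immediate early and stress genes had the highest share of the lists, 10 of 51 (19.6%), and 16 more had only other peaks. Btg1, an antiproliferative gene, had 1117 and 912 in Sin3B+/+ and 1498 and 1653 in Sin3B-/-, a ratio of 0.64. Ddit4, a stress-induced inhibitor of mTOR, had 894 and 654 against 1161 and 1243, also 0.64, and was the 1 gene of 41 on the PI3K, mTOR and autophagy list (2.44%). Atf7, whose promoter carries the BANP letters shown above, had 1478 and 1075 against 1748 and 2145, a ratio of 0.61 (0.40 without Sin3B+/+ replicate 2). Of 42 interferon and NF-kB genes 6 (14.3%) had a member peak, and 38.1% had any peak of the table, beside 15.7% of all protein-coding genes. Ifngr1, the ligand-binding chain of the interferon gamma receptor, had 1173 and 870 against 1416 and 1477, a ratio of 0.50 (0.30 without Sin3B+/+ replicate 2), and Traf2, an adaptor of TNF receptors, had 633 and 635 against 827 and 994, a ratio of 0.52. At Ifngr1 the controls differed by more than the gap between genotypes, and at Traf2 they were nearly equal.

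All directions given for these genes hold for the deposited values. With equal sums and with centred medians, 3 and 1 of 10 ribosomal protein peaks stayed above 0, 2 and 0 of 7 for translation factors, 2 and 2 of 13 for splicing factors, 1 and 1 of 6 for the respiratory chain, 2 and 1 of 6 for the mitochondrial ribosome, 5 and 4 of 17 for ubiquitin and proteasome, 3 and 1 of 15 for vesicle traffic, and 8 and 5 of 26 for Zfp zinc fingers. The same counts were 1 and 0 of 3 for chromatin regulators, 2 and 2 of 10 for core histones, 3 and 3 of 10 for immediate early and stress genes, and 2 and 2 of 6 for interferon and NF-kB genes. Over all protein-coding genes 294 and 204 of 911 member peaks stayed above 0. No list was tested for enrichment, and shares of genes with a member peak describe which promoters reached the table. With any peak of the table counted, shares of the lists other than the phase signatures ran from 16.5% (respiratory chain) to 51.0% (immediate early and stress). All stood above the 15.7% of all protein-coding genes, so higher shares were not particular to the members. Genes on the lists differ from the average gene in how often they are expressed and open in any cell, and the part of this in the shares was not tested.

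The 1048 members named 1040 genes, of which 8 had 2 member peaks each. At Ccnc, which encodes cyclin C, the peak at the start had 379 and 321 in Sin3B+/+ and 686 and 628 in Sin3B-/-, a ratio of 0.91, and the peak 675 bp upstream had 64.6 and 52.1 against 119 and 99.0, a ratio of 0.90. At Cabin1 both peaks had 0.87 and 0.86, whereas at Tpd52l2 they had 0.92 at the start and 0.65 at 842 bp upstream. Others were Baz2a, Mir22hg, Mpp2 and Zfp444. The 2 ratios of a gene differed by at most 0.28.

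The limits of the rule cut through a continuous range at the upper ratio and at both distances. Just inside the ratio of 1 were Parp10 and Gm17940, both at 0.99, and just outside were Rnu3b4 and 4930404N11Rik, both within 0.02 above it. Parp10 had 68.7 and 63.8 in Sin3B+/+ and 122 and 142 in Sin3B-/-, and Rnu3b4 had 215 and 176 against 384 and 400. At the lower end the range was not continuous. The lowest members were Gadd45a, which had 918 and 824 against 1172 and 1221, and Tfg, which had 748 and 702 against 1045 and 950, both at 0.46. The nearest promoter-proximal peaks outside were Galnt18 at -0.67 and Ptprk at -0.85, both lower in Sin3B-/-. At the upstream limit Aftph and Gm26664 lay inside at -997 and -996 bp, and Wrnip1 and Ccin outside at -1003 and -1005 bp. At the downstream limit Arnt and Gm13842 lay inside at 100 bp, and Ik and Wdr75 outside at 101 and 102 bp, with ratios of 0.71 and 0.56.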

How the data were processed

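ATAC-Seq was performed on 2 libraries per genotype of sorted LT-HSCs, each pooled from 2 mice. The authors trimmed reads (Trimmomatic), aligned them (Bowtie2), called peaks (MACS2), counted and normalised them in DiffBind, tested with DESeq2 and deposited the peaks with a false discovery rate under 0.05; the normalisation and tool versions are not given in the sources used here. The deposited values per library are a signal, reads in the peak multiplied by 1 factor per library. The distance of a peak from its gene start and its width are deposited values in bp. The authors' concentration, fold, p-value and FDR columns hold their own comparison and were not used. The submitters' notes name mm9, but gene identifiers matched GENCODE M21 (GRCm38) for 5330 of 5332 peaks, with the same gene start and end for 96.6%, and GRCm38 was used throughout.

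Members and gene lists were chosen with earlier results of these data known. Ratios are log2 of the summed Sin3B-/- over the summed Sin3B+/+ values. limma was fitted to log2(signal + 1) of all peaks, with Benjamini-Hochberg adjustment. A count test had been planned only for raw counts and was not run. limma was run on simulated data for this comparison, with 200 of 5332 peaks changed by 1.5 on the log2 scale. It recovered 100% of these 200 and called 0.156% of the others. All members have log2 ratios below 1, and recovery of differences of that size was not tested. A table in which most peaks differ in the same direction was not tested either. Permuting 4 libraries exactly gives no p below 0.333, and libraries from separate mice carry both biological and technical spread.

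Same-numbered libraries come from different mice, and the labels give no shared day. Named peaks were the 2 of highest mean signal in each gene list, the 3 highest of all, those nearest the limits of the rule, the highest with each motif and genes with 2 peaks; some genes that this rule names are not reported here, and peaks named outside it are marked in the text. Alternatives were run on the peaks named for signal or motif. A member held at least 167 and 91 steps of signal in the Sin3B+/+ libraries and at least 107 and 67 in the Sin3B-/- libraries. Total depth is unknown, and intervals cover counting error only. RefSeq promoter windows (GRCm38) were found for 799 of 1048 members. limma 3.58.1 ran in R 4.3.3, and the rest in Python 3.11.15 with pandas 2.3.3, numpy 2.4.6, pysam 0.24.0, matplotlib 3.10.9, scipy 1.17.1 and samtools 1.23.1.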

Additional observations from a re-analysis of the deposited data

How the results depend on the processing

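The number of peaks within the rule was 1620 with GENCODE transcript starts in place of the table's distance, 1714 with limits of -1000 to 1000 bp, 414 with equal library sums and 306 with centred medians, against 1048. Of the members, 360, 252 and 0 stayed above 0 with equal sums, centred medians and reads before scaling, and the median log2 ratio was -0.052, -0.098 and -0.88; the last of these medians was added after seeing the data. limma called 1048 members, 0 with centred medians (at an unadjusted p of at most 0.05, 0 higher and 4 lower), and from 373 to 1048 when 1 library was left out, beside 3121 to 5100 of all 5332 peaks. With 1 library left out the rule held for 937 to 1073 peaks, and the members' median ratio ran from 0.53 to 0.80. With the replicate block limma called 1037 members and 5064 of all peaks, and with the crossed pairing, added after seeing the data because same-numbered libraries deviated with a correlation of -0.10, it called 1048; no other result was fitted with a block. Pseudocounts of 1 and 10, 1 peak per gene, a limit of -500 bp and strong peaks alone left each summary in the same direction. Over whole peaks the median GC content was 59.1% and each motif was found more often than in 300 bp.

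Of 43 peaks named for their signal or their motif, 21 fell below 0 with equal sums, at log2 ratios of Gins2 -0.095, Gatad2a -0.0014, Stat3 -0.12, Rpl37 -0.065, Eif2ak3 -0.11, Hnrnpul1 -0.039, Cox14 -0.10, Mrpl17 -0.14, Psme2 -0.020, Rab5b -0.085, Zfp78 -0.051, Zfp444 -0.086, Arid1a -0.080, Ep300 -0.086, Hist1h3e -0.20, Atf7 -0.091, Btg1 -0.069, Ddit4 -0.061, Ifngr1 -0.19, Traf2 -0.20 and Gm43935 -0.14. With centred medians 28 fell below 0, at Cdkn2d -0.034, E2f3 -0.013, Gins2 -0.14, Mnt -0.029, Gatad2a -0.047, Stat3 -0.17, Rpl13a -0.028, Rpl37 -0.11, Etf1 -0.022, Eif2ak3 -0.16, Hnrnpul1 -0.085, Cox14 -0.15, Mrpl17 -0.18, Fbxo24 -0.024, Psme2 -0.066, Rab8a -0.032, Rab5b -0.13, Zfp78 -0.10, Zfp444 -0.13, Arid1a -0.13, Ep300 -0.13, Hist1h3e -0.25, Atf7 -0.14, Btg1 -0.11, Ddit4 -0.11, Ifngr1 -0.24, Traf2 -0.24 and Gm43935 -0.19. The cause was not tested. With 1 library left out none of the 43 changed sign, but without Sin3B+/+ replicate 1 the ratio of 12, without Sin3B+/+ replicate 2 that of 9 and without Sin3B-/- replicate 2 that of 1 moved by more than 0.17, the SD of the medians of the library pairs. Without Sin3B+/+ replicate 2, Gins2, Stat3, Ep300, Atf7, Ifngr1 and Gm43935 moved over 1.5 times, to 0.40, 0.37, 0.37, 0.40, 0.30 and 0.34.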
